A study of Mus musculus with 2 samples.

Results

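The islet hormone genes are the genes of the peptides that the endocrine cells of the pancreas make or have been found to make: Ins1, Ins2, Iapp, Gcg, Sst, Ppy, Pyy, Ghrl, Ucn3 and Npy. They were chosen by name, as the hormone genes of the islet, and all 10 were found among the 22350 protein-coding genes of the GENCODE M1 annotation on the mouse genome NCBIM37 (mm9). For each of them the sites bound by Rfx6 were taken from a list of ChIP-seq peaks, and each peak was placed by its summit, the base with the most overlapping fragments.

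The 3HA-Rfx6 library came from Min6b1 cells, a line of mouse β cells that secretes insulin, kept in medium with 25 mM glucose and transfected with 24 µg of the pCMV-Tag2A-3HA-Rfx6 plasmid by lipofection. Chromatin was taken 2 days later and precipitated with the anti-HA antibody 12CA5. The control library was an anti-HA ChIP of Min6b1 cells grown in the same medium. Its treatment label repeats the transfection text of the 3HA-Rfx6 sample, so whether the control cells were transfected, and with what, is not settled by the labels. The protein was thus a tagged Rfx6 made from a viral promoter on a plasmid, in 1 cell line, and not the Rfx6 of an islet. There was 1 library per condition, so no distance, read count or fold enrichment has a replicate error, no test was made, and neighbours in an order of values cannot be separated by a spread. The files hold binding and no expression, so the labelled cell type could not be checked against its markers.

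The 3HA-Rfx6 library held 49443917 reads, of which 33949757 remained with at most 1 read kept per position. The control held 16911298 reads, of which 3567375 remained. Of the 23308 peaks on 20 chromosomes, the fewest reads in a peak were 24, and the median peak had 73 reads and a fold enrichment of 8.54. The fold enrichment is the deposited ratio of the signal of a peak to the background that the control and the surrounding reads give. It need not follow the read count of the peak: a peak of 68 reads near Ins2 and one of 105 reads near Sst both had 7.06-fold. The part of the shallow control in these fold enrichments was not tested.

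Islet hormones are cut from larger precursors and stored in granules, and each is typical of an endocrine cell type: insulin and amylin of β cells, glucagon of α cells, somatostatin of δ cells, pancreatic polypeptide of PP cells and ghrelin of ε cells. Rfx6 is a winged-helix transcription factor of the regulatory factor X family, needed downstream of Ngn3 for most of these endocrine cell types, PP cells excepted, to form. Factors of this family bind the X-box, an imperfect inverted repeat whose right arm is commonly written GGCAAC.

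Rfx6 summits lay near some of the hormone genes and far from the others, and none lay inside a hormone gene. Ghrl and Ucn3 had a summit within about 2 kb, at 1.37 and 2.08 kb from the gene. Iapp, Ppy, Pyy and Ins2 followed at 8.86, 11.4, 15.6 and 17.9 kb. Npy and Sst had no summit nearer than 88.3 and 91.4 kb, and Gcg and Ins1, the genes of glucagon and of a mouse insulin, none nearer than 262 and 285 kb.

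The sequence under the Ucn3 summit is shown because it repeats the right arm of the X-box. These are the 200 bases around the summit of the peak 2.08 kb upstream of Ucn3, at chr13:3946571-3946770 on NCBIM37, read on the minus strand, which is the strand of the gene. Capitals mark each GGCAAC.
Ucn3 upstream: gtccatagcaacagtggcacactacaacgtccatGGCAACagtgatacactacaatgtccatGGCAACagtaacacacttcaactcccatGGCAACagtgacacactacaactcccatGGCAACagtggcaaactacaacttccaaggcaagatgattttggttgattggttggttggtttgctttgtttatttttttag
The window holds 4 copies of the arm, each beginning 28 bases after the one before it. Of the bases of the window, 67.4% were the same as the base 28 positions further on, a degree of repetition that 1.54% of all peaks reached at their own best period.

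The sequence of the peak with the highest fold enrichment near any hormone gene is shown because it has no such arm. It lies 15.6 kb upstream of Pyy, at chr11:101984600-101984799, read on the minus strand, the strand of the gene.
Pyy upstream: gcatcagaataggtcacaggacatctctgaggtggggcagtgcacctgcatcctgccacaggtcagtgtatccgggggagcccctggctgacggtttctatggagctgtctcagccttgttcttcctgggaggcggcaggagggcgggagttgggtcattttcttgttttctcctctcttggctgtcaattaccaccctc
Neither GGCAAC nor its complement GTTGCC occurs in these 200 bases.

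The next 3 sequences are close matches to an X-box near Iapp, Ins2 and Ghrl, shown because they lie at summits, with the match in capitals. The Iapp sequence, flanks included, spans chr6:142238021-142238113 on the plus strand, in the peak upstream of the gene. The Ins2 sequence spans chr7:149975036-149975088 on the plus strand. Its peak lies 89.6 kb upstream of the annotated start and 109 kb from the start of the Ins2-001 transcript. The Ghrl sequence spans chr6:113690824-113690877 on the minus strand. Its peak lies 21.0 kb upstream of Ghrl and 0.098 kb from the start of another gene, Sec13.
Iapp upstream: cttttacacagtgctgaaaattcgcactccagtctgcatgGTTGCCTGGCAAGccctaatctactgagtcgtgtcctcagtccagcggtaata
Ins2 upstream: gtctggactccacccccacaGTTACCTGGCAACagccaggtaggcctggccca
Ghrl upstream: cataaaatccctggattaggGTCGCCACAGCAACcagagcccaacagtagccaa
All sequences were read from the NCBIM37 genome.

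Shares of hormone genes with a summit nearby were set beside those of all protein-coding genes. With 10 genes, of which Ppy and Pyy share their peaks, the counts within 20, 50 and 100 kb were near the background. Inside the gene and within 10 kb they were lower than for all protein-coding genes. A summit lay within 50 kb of 6 of the 10 genes, against 67.9% of all protein-coding genes, and within 100 kb of 8 of the 10, against 76.7%. Within 10 kb it was 3 of the 10, against 47.1%, and within 20 kb 6 of the 10, against 55.2%. A summit lay inside 31.4% of all protein-coding genes and inside 0 of the 10.

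The hormone genes were short. Of the 10 genes, 9 spanned at most 10 kb, as did 8856 of all protein-coding genes. Among those short genes, 13.6% had a summit inside, 32.4% within 10 kb, 56.7% within 50 kb and 66.6% within 100 kb. Beside these shares, the 3 of 10 hormone genes within 10 kb and the 6 of 10 within 50 kb were near the background. The 8 of 10 within 100 kb were above it, and the 0 of 10 inside below it. The median distance from gene to nearest summit was 16.7 kb for the hormone genes, 13.1 kb for all protein-coding genes and 32.9 kb for the short ones. The median number of summits within 100 kb was 2.5 for the hormone genes, 3 for all protein-coding genes and 2 for the short ones.

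**Figure D1:**
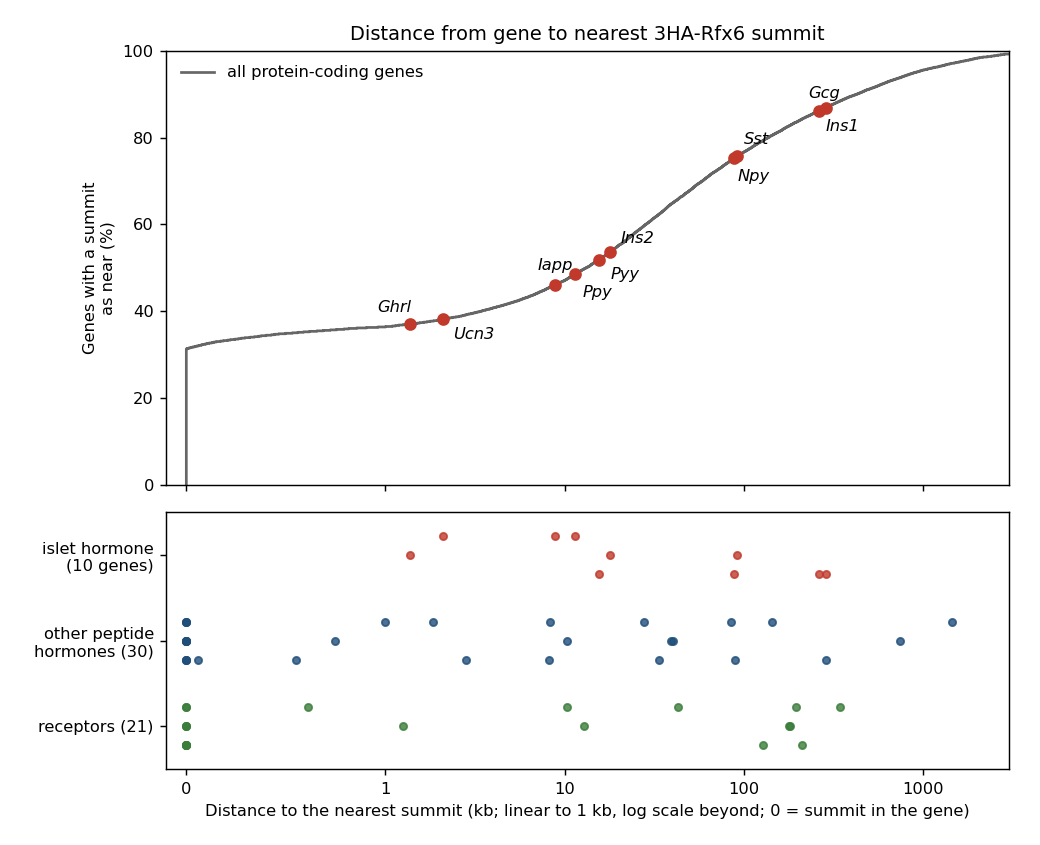
Top, share of all 22350 protein-coding genes (%, vertical axis) with a 3HA-Rfx6 summit as near as the distance on the horizontal axis (kb, linear to 1 kb and logarithmic beyond, 0 for a summit in the gene), with the 10 hormone genes marked. Bottom, each gene of the islet hormone list, of 30 other peptide hormone genes and of 21 receptor genes as a point, moved up or down only to separate points. The hormone genes run from 1.37 kb (Ghrl) to 285 kb (Ins1), and none of them is at 0.

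Around the 10 genes, 29 different peaks had a summit within 100 kb, 18 of them within 50 kb. They had from 28 to 288 reads with a median of 79, and fold enrichments from 4.47 to 39.52 with a median of 8.71. Of the 29, 18 had more reads than the median peak of the list and 15 a higher fold enrichment. Their summits were intergenic in 11 cases, intronic in 13 and exonic in 5.

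Many of these peaks sat closer to other genes than to the hormone gene. The start of a hormone gene was the nearest protein-coding start for 5 of the 29, and 6 of the 29 lay within 1 kb of the start of another protein-coding gene. None lay within 1 kb of the start of a hormone gene. Of all peaks in the list, 17.8% lay within 1 kb of a protein-coding start, so 6 of the 29 is near that share. No share over other genes was counted to set beside the 5 of the 29.

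**Figure D2:**
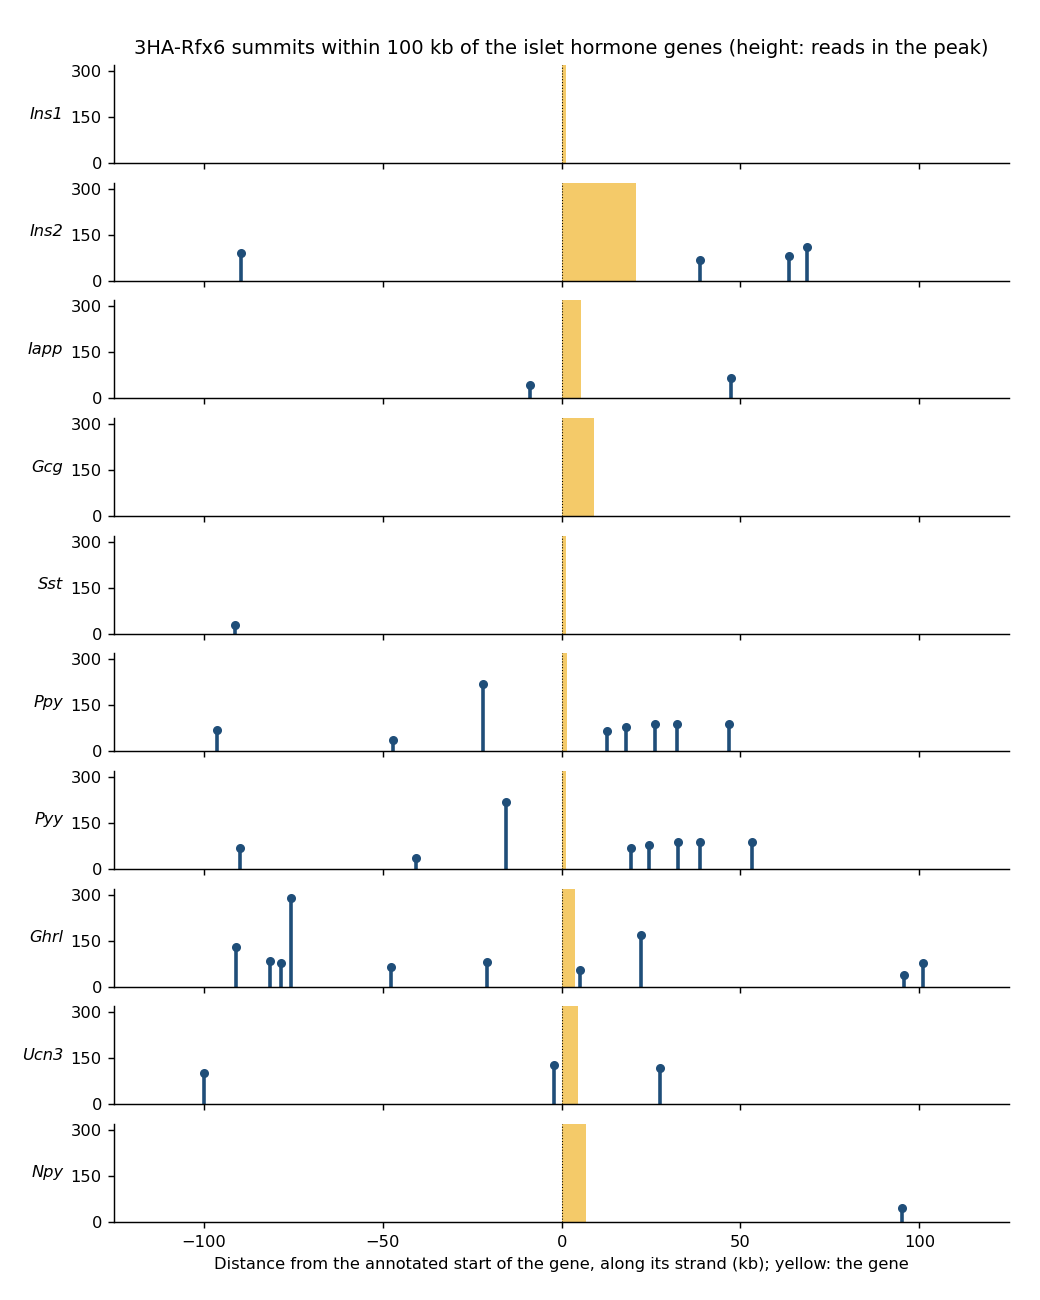
Every 3HA-Rfx6 summit within 100 kb of each hormone gene, 1 panel per gene, against its distance from the annotated start along the strand of the gene (kb, upstream to the left), with the height giving the reads of the library in the peak. The yellow block is the gene. Ins1 and Gcg have no summit in their panels, Sst and Npy have 1 each near the edge, and Ghrl has 10.

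**Figure D3:**
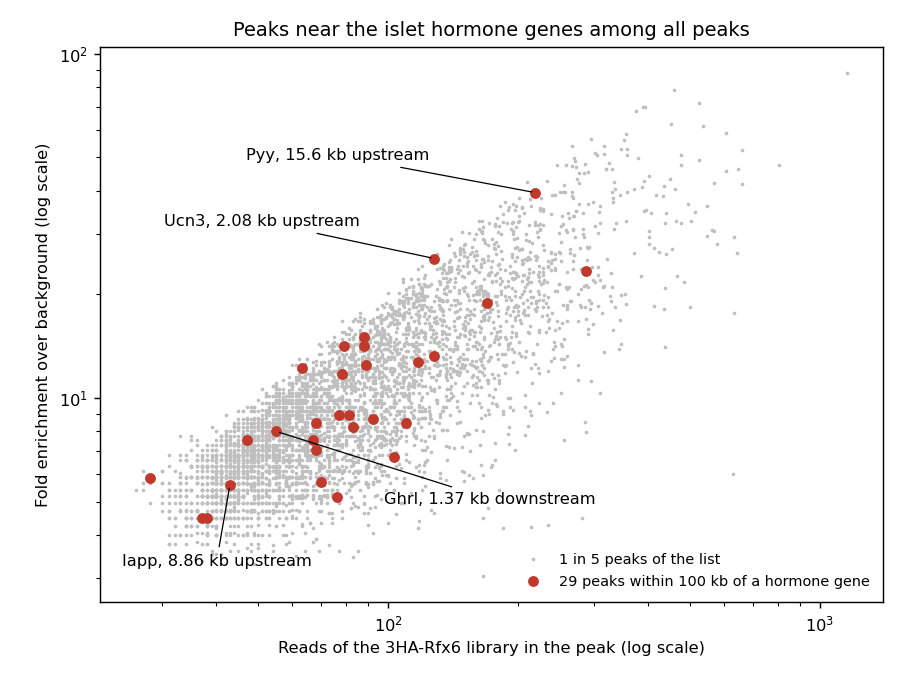
Fold enrichment against reads of the 3HA-Rfx6 library in the peak, both on log scales, for 1 in 5 peaks of the list (grey) and the 29 peaks within 100 kb of a hormone gene (red). The peaks upstream of Pyy (219 reads, 39.52-fold) and of Ucn3 (128 reads, 25.42-fold) lie near the upper edge of the cloud. The peak upstream of Iapp (43 reads, 5.6-fold) lies low in it. The peak downstream of Ghrl (55 reads, 8.0-fold) lies near the median fold of 8.54.

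Ucn3 (ENSMUSG00000044988.7, chr13:3939934-3944595, minus strand) had the peak with the most reads and the highest fold enrichment of the 3 within 10 kb of a hormone gene. It encodes urocortin 3, a peptide of the corticotropin-releasing factor family that marks mature β cells and acts on δ cells. Its upstream peak, at chr13:3946226-3947144 with the summit at 3946671, had 128 reads and a fold enrichment of 25.42, and 20.7% of all peaks had as many reads and 5.53% as high a fold. The summit lies on the tandem repeat printed above, and how reads that map to several places were treated is not given in the sources used here, so the part of the repeat in these values was not tested. The site was intergenic, and Ucn3 was the nearest protein-coding start. Measured from its start, 23.8% of protein-coding genes had a summit as near as Ucn3, and measured from the nearest edge of the gene, 38.1%.

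The remaining Ucn3 peaks belonged to the surroundings of other genes. A peak of 117 reads and 12.71-fold lay 23.0 kb downstream, in an intron of Net1, a guanine nucleotide exchange factor gene, 0.483 kb from the Net1 start. Another of 103 reads and 6.74-fold lay 99.9 kb upstream, with the start of Akr1c14 nearest at 3.76 kb. The 3 peaks within 100 kb of Ucn3 held 348 reads together.

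Ghrl (ENSMUSG00000064177.5, chr6:113666113-113669874, minus strand) encodes preproghrelin, the precursor of the hunger hormone ghrelin, which is made in the stomach and in ε cells. It had the nearest summit of the 10 genes, 1.37 kb beyond its end and 5.13 kb from its start, in intergenic sequence. That peak had 55 reads and a fold enrichment of 8.0, and 69.7% of all peaks had as many reads. From gene edge to summit, 37.0% of protein-coding genes and 19.5% of the short ones had a summit as near.

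Ghrl also had the most peaks, 4 within 50 kb and 10 within 100 kb with 1056 reads together, and 11.2% of protein-coding genes had as many summits within 100 kb. The peak with the most reads near any hormone gene was among them, 75.6 kb upstream in an intron of Atp2b2, a plasma membrane calcium pump gene. It had 288 reads and a fold enrichment of 23.35, and 2.84% of all peaks had as many reads. Its deposited FDR was 5.78%, so it left the list at an FDR limit of 5%. In the introns of Atp2b2 there were also peaks of 63 reads at 47.7 kb, 77 reads at 78.5 kb, 83 reads at 81.4 kb and 128 reads at 91.0 kb.

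The other Ghrl peaks were mostly at the starts of neighbouring genes. Upstream at 21.0 kb, a peak of 79 reads and 14.12-fold lay 0.098 kb from the start of Sec13, which encodes a protein of the COPII coat and the nuclear pore. Downstream at 18.4 kb, a peak of 169 reads and 18.86-fold lay in an exon of Tatdn2, 0.688 kb from its start, and at 91.9 kb a peak of 38 reads lay in an exon of Vhl, 0.236 kb from its start. A peak of 76 reads and 5.14-fold lay 97.2 kb downstream in intergenic sequence.

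Iapp (ENSMUSG00000041681.2, chr6:142246943-142252481, plus strand) encodes amylin, the peptide stored and released with insulin. Its nearest summit was 8.86 kb upstream, inside an intron of Slco1a5, an organic anion transporter gene, although Iapp was the nearest protein-coding start. The peak was weak, at 43 reads and 5.6-fold, and 88.8% of all peaks had as many reads and 85.7% as high a fold. The only other summit within 100 kb lay 41.8 kb downstream in an exon of Pyroxd1, 0.144 kb from its start, with 68 reads and 8.47-fold.

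The short distance of Iapp rested on that weak peak. With peaks of at least 10-fold only, the nearest summit to Iapp was 841 kb away, that to Ins2 116 kb away, and that to Ghrl 18.4 kb away. The Ucn3, Pyy and Gcg distances did not move, at 2.08, 15.6 and 262 kb.

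Ppy and Pyy lie 5.36 kb apart on chromosome 11 and share the same 8 peaks within 100 kb, with 736 reads together. Ppy (ENSMUSG00000017316.6, chr11:101961244-101962633, minus strand) encodes pancreatic polypeptide, and Pyy (ENSMUSG00000017311.8, chr11:101967990-101969146, minus strand) encodes peptide YY, made in the gut and in islets. The 2 genes are not independent members, and the stretch is rich in genes. The starts of 8 other protein-coding genes, Ppy among them, lie within 100 kb of the Pyy start. Of all protein-coding genes, 18.6% had as many summits within 100 kb as Ppy.

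The highest peak of that cluster lay upstream of both genes, at chr11:101984090-101985396 with the summit at 101984700, 15.6 kb from Pyy and 22.1 kb from Ppy. Its 219 reads and fold enrichment of 39.52 were high, and 6.37% of all peaks had as many reads and 1.14% (266 peaks) as high a fold. The site was intergenic, with Pyy the nearest protein-coding start. Its deposited FDR was 5.7%, so it too was absent from the list at an FDR limit of 5%. The nearest summit to Pyy was then 18.1 kb downstream. That limit kept much weaker peaks, such as the one upstream of Sst (28 reads, FDR 1.8%) and the one upstream of Iapp (43 reads, FDR 1.94%). The deposited FDR thus did not rank these peaks by strength.

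The downstream side of Ppy was taken up by Mpp2, a membrane scaffold gene, and Cd300lg, a receptor gene. The nearest summit to Ppy, at 11.4 kb, had 67 reads and 7.53-fold and lay 0.028 kb from the start of Mpp2. Summits in Mpp2 introns followed at 16.5 kb with 78 reads, 24.7 kb with 88 reads and 30.8 kb with 88 reads, and their fold enrichments were 11.77, 14.15 and 15.06. A summit in an exon of Cd300lg at 45.4 kb had 89 reads and 12.48-fold.

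On the upstream side of Ppy, weaker peaks lay in an intron of Nags at 47.1 kb (37 reads, 4.47-fold) and in an exon of Hdac5 at 96.4 kb (70 reads, 5.69-fold). Nags encodes the enzyme that makes N-acetylglutamate for the urea cycle, and Hdac5 a histone deacetylase.

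Ins2 (ENSMUSG00000000215.4, chr7:149864561-149885415, minus strand) is the mouse counterpart of the human insulin gene. The annotation gives it 8 transcripts and a span of 20855 bp, because Ins2-006 begins at 149885415, while Ins2-001 begins at 149865631 and spans 1068 bp. No summit fell in the longer span either. The nearest summit, 17.9 kb downstream of the gene and 18.9 kb from the Ins2-001 start, had 68 reads and a fold enrichment of 7.06. It lay in an intron of Igf2, the gene of insulin-like growth factor 2, and in an exon of the antisense Igf2as, 6.02 kb from the Igf2 start.

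The further Ins2 peaks were all intergenic. Downstream at 42.8 kb a peak had 81 reads and 8.94-fold, and at 47.6 kb a peak had 110 reads and 8.47-fold, both with the Igf2 start nearest. Upstream, a peak of 92 reads and 8.71-fold lay 89.6 kb from the annotated start and 109 kb from the Ins2-001 start. Of protein-coding genes, 53.7% had a summit as near as Ins2, and 43.3% had as many as its 4 summits within 100 kb.

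Ins1 (ENSMUSG00000035804.4, chr19:52338813-52339946, plus strand), the rodent-specific insulin gene that arose from Ins2, stood alone in a long stretch without a peak. The nearest summit was 285 kb downstream, with 62 reads and 7.18-fold, and the nearest upstream was 1822 kb away in an intron of Sorcs1, with 30 reads and 6.12-fold. The gap of 2108 kb ranked 146 among the 23288 gaps between neighbouring summits, whose median was 26.1 kb, and 10.6% of protein-coding genes lay in a gap as wide. Ins1 was the only protein-coding gene wholly inside it, and 86.9% of protein-coding genes had a summit as near.

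Gcg (ENSMUSG00000000394.9, chr2:62312587-62321707, minus strand) encodes proglucagon, the precursor of glucagon in α cells and of GLP-1 in the gut. Its nearest summit was 262 kb downstream in an intron of Slc4a10, a bicarbonate transporter gene, and this peak had 118 reads and 19.98-fold enrichment. Upstream, none was found for 1219 kb, and the peak there had 65 reads and 9.18-fold. The gap of 1490 kb ranked 243 among all gaps, 13.9% of protein-coding genes lay in a gap as wide, and 86.1% had a summit as near as Gcg. The gap held 6 protein-coding genes whole: Dpp4, Gcg, Fap, Ifih1, Gca and Kcnh7. Dpp4 encodes the protease that inactivates GLP-1.

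Sst (ENSMUSG00000004366.3, chr16:23889667-23890930, minus strand), the gene of somatostatin, which restrains the release of insulin and glucagon, had 1 summit within 100 kb. It lay 91.4 kb upstream in an intron of Bcl6, a transcriptional repressor gene, 6.6 kb from the Bcl6 start. With 28 reads and 5.84-fold it was among the smallest of the list, and 99.9% of all peaks had as many reads. Downstream the nearest summit was at 146 kb, with 105 reads and 7.06-fold.

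Npy (ENSMUSG00000029819.6, chr6:49772709-49779506, plus strand), the gene of neuropeptide Y, a peptide of the same family as Ppy and Pyy, had 1 summit within 100 kb. That peak was intergenic, 88.3 kb downstream, with 47 reads and 7.53-fold. The nearest upstream was at 106 kb, with 79 reads and 6.51-fold. Npy was the nearest protein-coding start to both. For Sst 75.7% and for Npy 75.3% of protein-coding genes had a summit as near.

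Both strands of the 200 bp centred on a summit were scanned for the X-box. The strict form was GTN, a purine and CC, then a spacer of 0 to 3 bases, then a purine, G, a pyrimidine and AAC, 11 letters in all that are not N. A strict X-box lay at 2 of the 29 summits, against 6.42% of all peaks and 0.253% of windows of the same length 1 kb to the right of the summits. They were the Ins2 peak 89.6 kb upstream and the Ghrl peak 21.0 kb upstream, both shown above. The Ins2 peak was counted because of the long annotated span of Ins2, as it lies 109 kb from the Ins2-001 start.

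A relaxed X-box asks only for purines and pyrimidines in most places of the arms, with a spacer of 1 to 3 bases and a right arm that ends in AC. It was found at 16 of the 29 summits (55.2%), against 45.9% of all peaks and 22.8% of the shifted windows. The single arm GGCAAC, chosen after these values were seen, occurred at 10 of the 29 (34.5%), against 26.8% of all peaks and 6.39% of the shifted windows.

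Near misses of the strict form were scored by how many of the 11 letters fitted at the best place in the window. A fit of at least 10 was reached at 9 of the 29 summits, against 29.8% of all peaks and 5.17% of the shifted windows. The Iapp match printed above was among them, 11 bp from its summit with 10 of 11 letters. At Ucn3 the best fit was 9 and at the strong Pyy peak 8.

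Few peaks held as many GGCAAC arms as the one at Ucn3. At least 4 arms were found at 0.172% of the summits (40 peaks) and in 0.00429% of the shifted windows (1 window). Those 40 peaks had a median of 100.5 reads and a median fold enrichment of 12.6. The Ucn3 window also held a relaxed X-box and no strict one.

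**Figure D4:**
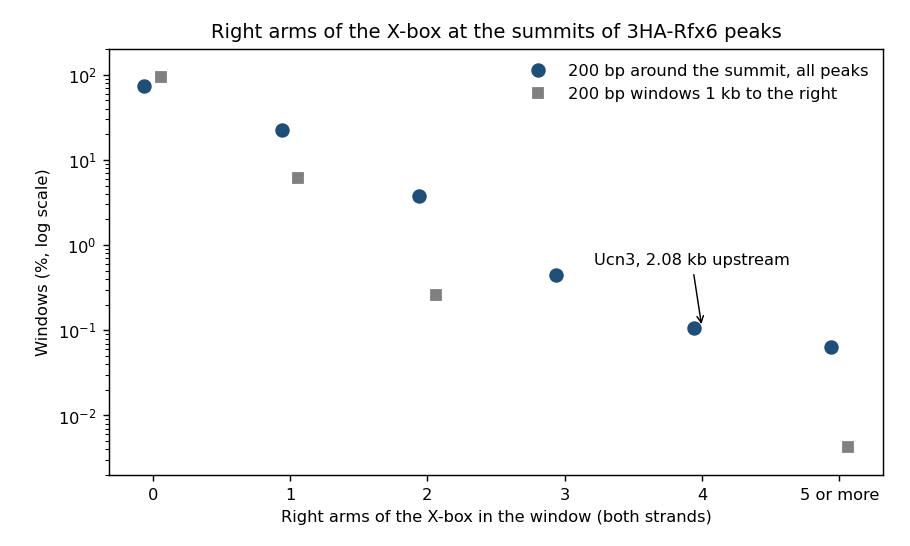
Share of 200 bp windows (%, log scale) by the number of GGCAAC arms they hold on either strand, for all 23308 summits (blue) and for windows 1 kb to the right (grey). No shifted window held 3 or 4 arms, so no grey point is drawn there. The Ucn3 peak is 1 of the 0.107% of summits with exactly 4.

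The strong Pyy peak held no arm and no close match to the X-box. Among the 2430 peaks with a fold enrichment of at least 20, 10.4% had a best fit of at most 8 letters, as the Pyy peak did, against 17.6% of all peaks. The Ghrl peak in Atp2b2, with 288 reads and 23.35-fold, also had a best fit of 8 and no GGCAAC arm.

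Without reference to the peaks, the 10 kb upstream of each annotated start were searched too. A strict X-box was present for 1 of the 10 genes, against 13.2% of protein-coding genes. It lay at position -5222 from the start of Pyy, at chr11:101974368-101974380, 10.3 kb from the nearest summit, and is shown in capitals on the plus strand.
Pyy distal: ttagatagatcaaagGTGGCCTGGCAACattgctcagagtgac
No letters of this site lay in a peak.

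Matches to the relaxed form were common, with a median of 15 over all protein-coding genes when overlapping matches are counted. The hormone genes ranged from 10 at Iapp to 31 at Sst. At Sst, 0.277% of protein-coding genes had as many, at Ucn3, with 25, 2.82%, and at Pyy, with 23, 6.36%. The remaining 7 genes had from 10 to 20. Sst, the richest of the 10 in such matches, had its nearest summit at 91.4 kb.

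The promoters, from 250 bases before to 50 after the start, were read from RefSeq for 9 of the 10 genes on GRCm38.p6. Ins2 was the gene without a promoter there, so its promoter was not scanned. None held a strict X-box, against 1.53% of 32851 promoters, so 0 of 9 is near the background. A relaxed X-box was found in at least 1 promoter of 6 of the 9 genes, against 34.7% of all promoters. Some genes have several promoters in this table, so that count of genes and that share of promoters are not on the same base.

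Other peptide hormone genes and the receptors of the islet peptides were set beside them as lists chosen by function. Of 30 other hormone genes, 24 had a summit within 50 kb (80.0%, against 67.9% of all protein-coding genes), 19 within 10 kb (against 47.1% of all) and 11 inside the gene (against 31.4% of all). Their median distance was 1.43 kb, with a range from 0 to 1451 kb. At their starts the nearest summits were those of Cartpt, 57 bp upstream with 494 reads and 43.31-fold, and of Adm, 58 bp downstream with 184 reads. Pnoc, Penk and Pthlh followed at 77, 137 and 138 bp downstream, with 40, 182 and 45 reads. Cartpt encodes the CART peptide, Adm adrenomedullin, Pnoc nociceptin, Penk the enkephalins and Pthlh the parathyroid hormone-like hormone. The 30 genes are not all independent of each other or of the islet hormone genes. Avp and Oxt share their nearest peak, with 293 reads, and the summit in Igf2 is also the nearest to Ins2.

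Of the 21 receptor genes, 15 had a summit within 50 kb (71.4%, near the 67.9% of all protein-coding genes), 12 within 10 kb (against 47.1% of all) and 10 inside the gene (against 31.4% of all). Their median distance was 0.61 kb, with a range from 0 to 342 kb. The shares were lower for short genes, as given above, and gene length was not matched for the receptors or the other hormone genes. Glp1r, the receptor of the GLP-1 encoded by Gcg, had a summit 73 bp downstream of its start with 130 reads and 10.36-fold. Sstr2 and Sstr3, receptors of somatostatin, had summits at 158 and 195 bp with 148 and 165 reads. Ramp1, a subunit of amylin receptors, had one at 252 bp with 69 reads, and Igf1r one at 549 bp with 130 reads. The 6 receptor genes without a summit within 100 kb, named after their values were seen, were Npy6r at 127 kb, Calcr at 179 kb, Npy2r at 180 kb, Npy5r at 194 kb, Npy1r at 211 kb and Sstr4, another somatostatin receptor, at 342 kb from the gene.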

How the data were processed

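Reads of 50 bases from 1 library of 3HA-Rfx6 ChIP and 1 control library of Min6b1 cells were mapped by the authors, with CASAVA 1.8.2 and Bowtie named in the submitters' processing notes. The authors called peaks with MACS 1.4.2 at a p cutoff of 1e-05, with the control as background, at most 1 read per position and a fragment length of 234 bp. The deposited counts are reads of the 3HA-Rfx6 library in the peak, without normalization. The deposited fold enrichment is a ratio to the background from the control and the local reads, the deposited score is the negative log10 of the p-value of MACS, multiplied by 10, and the deposited FDR is a percent from peaks called with ChIP and control exchanged. Total reads are given in the report. The RNA-seq, qRT-PCR and imaging of the study were not analysed here.

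The build was checked: all 23308 peaks lay inside the NCBIM37 chromosomes. A summit was placed at the start of the peak plus its offset minus 1. Distances ran from the nearest edge of the gene, or from its annotated start where stated, and a share as near is the percent of the 22350 protein-coding genes with a summit at that distance or less. The named genes were the 10 members with their nearest summit on each side, all summits within 100 kb and the gene whose start was nearest, and up to 5 genes per list by distance to the start. The members and lists were chosen with earlier results of these data known. With 1 library per condition, counts were set beside the background and no test was made. Alternatives were narrower peak sets, other distances and other forms of the X-box. Scripts ran on Python 3.11.15 with pandas 2.3.3, numpy 2.4.6, matplotlib 3.10.9 and scipy 1.17.1. On simulated data, 400 of 400 planted X-boxes and 448 of 448 distances were recovered.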

Additional observations from a re-analysis of the deposited data

How the results depend on the processing

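No paired analysis was possible because each condition had a single library, so no replicate could be left out either. Within 50 kb the count of hormone genes with a summit was 6 of 10. With a limit of 10 kb it was 3, where 47.1% of protein-coding genes had one. It stayed at 6 with a limit of 20 kb (55.2%) and with the 50% of peaks with the highest scores (51.2%). With an FDR limit of 5%, the annotated start or the whole peak interval it was also 6 (67.1%, 62.5% and 68.0%). With peaks of at least 10-fold, 4 of 10 had a summit within 50 kb (45.7% of protein-coding genes) and 4 of 10 within 100 kb (58.4%), in place of 6 and 8. Within 100 kb the count was 6 with the 50% of peaks with the highest scores (63.0%) and 8 under the other alternatives (74.2% to 76.8%). The 2 of 29 summits with a strict X-box became 16 with the relaxed form (45.9% of all peaks), 4 with the strict form in the whole peak (8.87%) and 10 with the GGCAAC arm alone (26.8%), a setting added after the data were seen. In 100 bp around the summit the strict count stayed at 2 (5.05% of all peaks).

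With the 50% of peaks with the highest scores, 7 of the 10 genes lost their nearest summit: the distances became 16.5 kb for Ppy, 18.4 kb for Ghrl, 41.8 kb for Iapp, 42.8 kb for Ins2, 146 kb for Sst, 161 kb for Npy and 815 kb for Ins1. Those of Gcg, Pyy and Ucn3 stayed. Without replicates, the error of a single read count or fold enrichment is not known.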
